A study of Homo sapiens with 12 samples.

Results

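Integrin genes were followed through mRNA abundance, ribosome footprints and ribosome density in HCT116, an epithelial cell line from a human colorectal cancer. The members were 10 genes chosen by symbol: the alpha subunit genes ITGA2, ITGA3, ITGA5, ITGA6 and ITGAV, the beta subunit genes ITGB1, ITGB4, ITGB5 and ITGB6, and ITGB3BP, which carries integrin in its name but does not encode a subunit. All 10 were among the 15798 genes of the table, and 9 of them were among the 10663 genes that were tested, whose count reached 10 in 3 or more of the input libraries. ITGB6 did not reach that minimum. Cells had received trametinib at 100 nM, which blocks MEK and so the activation of ERK by it, or the solvent DMSO for 24 h. Input, which is cytoplasmic RNA fragmented at random, and footprints, the stretches of mRNA that ribosomes shield from RNase I, were each sequenced in 3 replicates per treatment, which gives 12 libraries in 4 groups of 3. Cells of both treatments were given cycloheximide shortly before lysis, which halts ribosomes on the mRNA. All libraries come from a single cell line, so the values describe that line.

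Integrins are receptors made of an alpha and a beta subunit that bind matrix proteins outside the cell and couple them to the actin or keratin cytoskeleton inside. The pairing sets the ligand: ITGA2 with ITGB1 binds collagen, ITGA5 with ITGB1 binds fibronectin, ITGA3 with ITGB1 and ITGA6 with ITGB1 or ITGB4 bind laminins, and ITGAV pairs with several beta chains to bind proteins such as vitronectin, fibronectin and latent TGF-beta. In the gut epithelium, ITGA6 and ITGB4 form the laminin receptor of hemidesmosomes, and signals from integrins feed into the ERK pathway through focal adhesion kinases.

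Counts inside open reading frames summed to 2276693 to 2845568 per input library and 10127477 to 19181588 per footprint library, and the median standard error (SE) of a log2 change over all tested genes was 0.22 in input, 0.15 in footprints and 0.27 in ribosome density. DUSP6, a phosphatase transcribed in response to ERK and a check of the treatment, went from 1392 ± 206 to 6.58 ± 6.10 normalized counts in input (SD, n = 3). Of the 8 epithelial markers, 8 were above 3 counts in every library, and 5 of them rose in input, beside 15.6% of all tested genes. The other 3, EPCAM, KRT18 and CLDN7, did not pass the test, with log2 changes of 0.27, -0.22 and -0.64. The summed normalized counts of leukocyte markers were 2.16 to 4.68 in DMSO and 14.4 to 25.7 in trametinib input. In footprints they were 3.69 to 9.12 and 16.2 to 17.3, and neither assay showed overlap. Of the 7 leukocyte markers, 0 were above 3 counts in every library, and their raw sums were 1 to 56 per library. These sums are near the limit of detection. Among all tested genes, 23.2% were higher without overlap in input and 29.3% in footprints. The summed normalized counts of endothelial markers, of which VWF rose, were 4.68 to 30.2 in DMSO and 54.0 to 61.8 in trametinib input. In footprints the endothelial sums were 3.91 to 9.58 and 10.4 to 14.4, again without overlap. Of the 4 endothelial markers, 0 were above 3 counts in every library, and their raw sums were 2 to 35 per library. Fibroblast markers summed to 40.2 to 84.1 in DMSO libraries and 122 to 191 in trametinib libraries, and the collagen gene COL3A1 was the member of that list that rose. COL1A1, the 1 fibroblast marker above 3 counts in every library, did not pass the test. Its log2 change was -0.20 in input and 0.23 in footprints. COL3A1 and VWF reached the minimum count for testing only with trametinib input libraries, where they were high. Their calls are therefore not independent of that rise. The DMSO input and footprint libraries of replicate 1 held higher values of several integrin genes than the other DMSO libraries, as given below, and results that rest on them are stated with and without them.

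Trametinib lowered more of the member genes than it raised, and 1 of those lowered, ITGB3BP, does not encode a subunit. Of the tested subunit members, 2 of 5 alpha and 3 of 3 beta subunit genes fell in input, and 1 alpha subunit gene rose. In input, 6 of 9 tested genes fell (ITGA2, ITGA6, ITGB1, ITGB4, ITGB5 and ITGB3BP), 1 rose (ITGAV) and 2 were not called (ITGA3 and ITGA5), where called means an adjusted p-value under 0.05 by edgeR's quasi-likelihood test with Benjamini-Hochberg adjustment over all tested genes. Of all tested genes, 16.8% fell, 15.6% rose and 32.3% did either. The median log2 change, trametinib over DMSO, was -0.83 for the 9 genes and -0.00 for all tested genes. In footprints 5 of 9 fell and 1 rose, and the median change was -0.57, against 25.3% lower, 23.9% higher and 49.2% either, with a median of -0.01, for all tested genes. Without regard to a test, 7 of the 9 genes were lower and 1 higher in input with no overlap between the 3 DMSO and the 3 trametinib libraries, as were 23.3% and 23.2% of all tested genes, and 5 were lower and 1 higher in footprints, as were 30.3% and 29.3%. Input and footprints were each scaled to their own libraries, so the changes are relative to other mRNAs, and in bulk RNA fewer cells with an mRNA cannot be told apart from less of it per cell. The p-values measure the spread between the 3 dishes of 1 cell line.

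**Figure D1:**
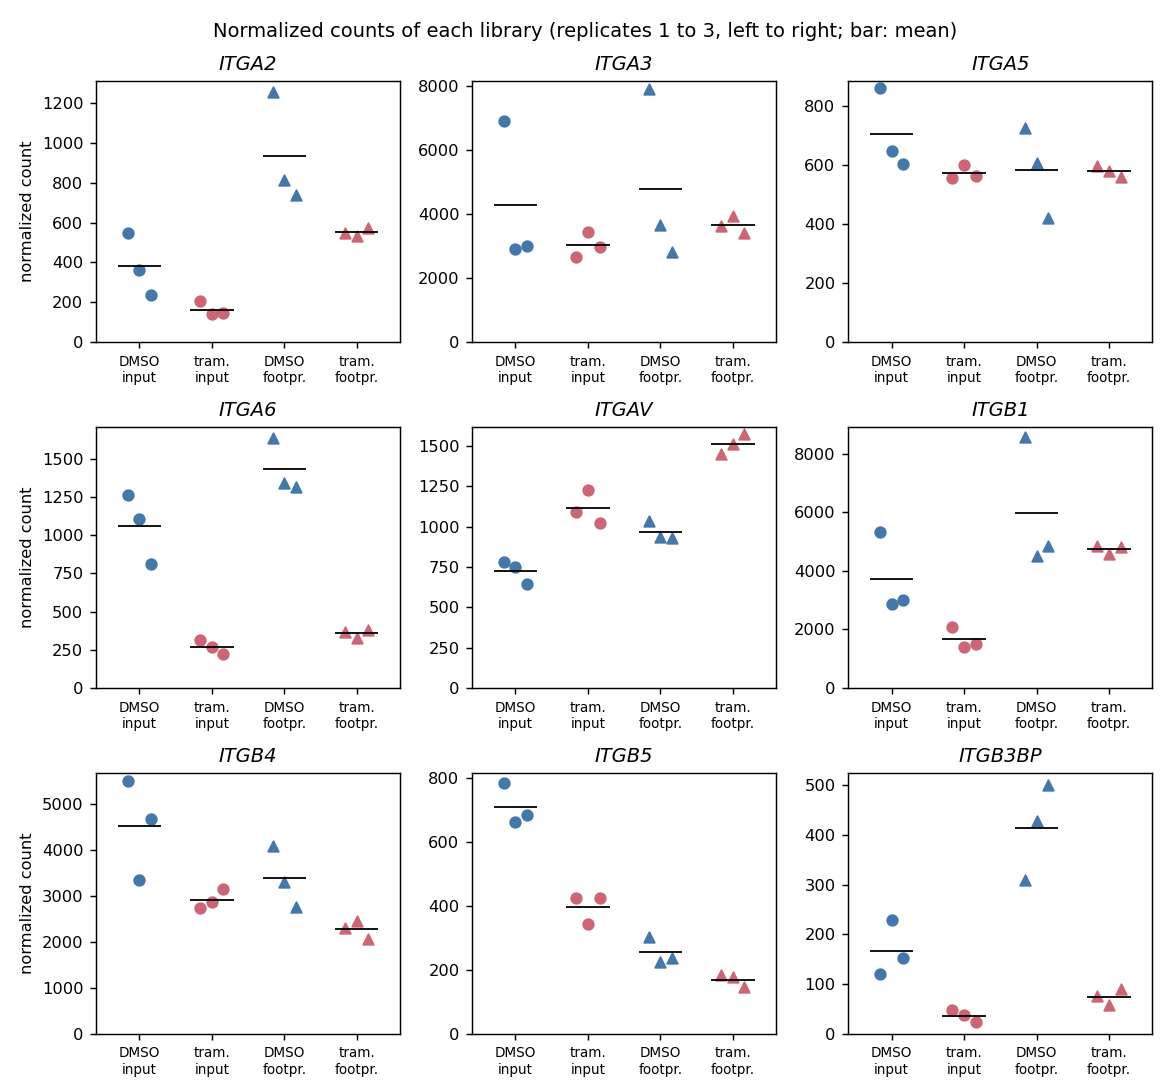
Normalized counts of the integrin genes in each of the 12 libraries, on a linear axis, with input and footprints of DMSO and trametinib side by side. Points are libraries and bars are means of 3; ITGA6 and ITGB3BP are lower and ITGAV is higher in every trametinib library of both assays than in any DMSO library.

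Among the alpha subunits, ITGA6, the laminin-binding chain (chr2:172427354-172506459, plus strand, GRCh38, 26 exons), fell the most. Its normalized counts in DMSO input were 1262, 1104 and 810 in replicates 1, 2 and 3, and in trametinib input 315, 268 and 221. Footprints were 1640, 1340 and 1314 in DMSO and 367, 329 and 381 in trametinib. The groups did not overlap in either assay, and the drop was alike in both. The log2 change was -1.98 (SE 0.20, adjusted p = 4.79e-06, edgeR's quasi-likelihood test with Benjamini-Hochberg adjustment) in input, a level 3.93-fold lower. It was -1.99 (SE 0.13, adjusted p = 3.38e-06, same test) in footprints, 3.98-fold lower.

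ITGAV, the alpha chain that pairs with ITGB5, ITGB6 and ITGB8 among others (chr2:186590010-186680901, plus strand, 30 exons), moved the other way. Its input counts were 783, 752 and 644 in DMSO and 1093, 1227 and 1021 in trametinib. Its footprints were 1036, 934 and 930 in DMSO and 1447, 1511 and 1572 in trametinib. Every trametinib library was above every DMSO library of the same assay. The rise was 0.62 on the log2 scale in input (SE 0.15, adjusted p = 0.00625, edgeR's quasi-likelihood test) and 0.65 in footprints (SE 0.10, adjusted p = 0.000866), or 1.54-fold and 1.57-fold. Both genes lie on chromosome 2, and both changes kept their call in every alternative and with every library left out in turn.

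ITGA2, the collagen-binding chain (chr5:52989340-53094779, plus strand, 30 exons), fell as well. Input counts were 548, 361 and 236 in DMSO and 205, 142 and 144 in trametinib, with no overlap, though the DMSO libraries differed by more than the trametinib ones. Footprints were 1256, 814 and 738 in DMSO and 551, 532 and 572 in trametinib, again without overlap. The change was -1.22 (SE 0.28, adjusted p = 0.00529, edgeR's quasi-likelihood test) in input and -0.76 (SE 0.19, adjusted p = 0.00945) in footprints. Replicate 1 of DMSO was the highest library in both assays. Without its input library the input change was -0.88, and without its footprint library the footprint change was -0.49.

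ITGA3, the partner of ITGB1 in a laminin receptor (chr17:50055968-50090481, plus strand, 26 exons), was not called. Input counts were 6922, 2915 and 2999 in DMSO and 2667, 3443 and 2982 in trametinib. Footprints were 7896, 3648 and 2812 in DMSO and 3635, 3932 and 3425 in trametinib. DMSO replicate 1 stood above all other libraries in both assays. The remaining DMSO values lay among the trametinib ones in input, and in footprints 1 lay among them and replicate 3 below them. The change of -0.49 in input had a 95% interval of -1.26 to 0.28, and the footprint change of -0.38 one of -1.24 to 0.48. Without the DMSO replicate 1 library the values were 0.03 in input and 0.19 in footprints, so the sign rests on that replicate.

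ITGA5, the fibronectin-binding chain (chr12:54395261-54419266, minus strand, 30 exons), was not called in either assay. Its input counts were 863, 648 and 604 in DMSO and 556, 599.6 and 563 in trametinib, lower in every trametinib library. Its footprints were 725, 608 and 419 in DMSO and 598, 581 and 559 in trametinib, inside the DMSO range. The input change had a 95% interval of -0.66 to 0.07, and was -0.13 without the input library of DMSO replicate 1. The footprint interval was -0.42 to 0.40, and the footprint change of -0.01 turned to 0.17 with scaling to library totals.

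Among the beta subunits, ITGB1, the common partner of the alpha chains ITGA2, ITGA3, ITGA5 and ITGA6 (chr10:32887273-33005792, minus strand, 16 exons), lost input RNA. Input counts were 5334, 2850 and 3016 in DMSO and 2094, 1390 and 1491 in trametinib, with no overlap. Footprints were 8557, 4499 and 4843 in DMSO and 4841, 4588 and 4828 in trametinib. The trametinib footprint libraries lay within the DMSO range, next to DMSO replicates 2 and 3. Input fell by 1.17 on the log2 scale (SE 0.25, adjusted p = 0.00422, edgeR's quasi-likelihood test), a level 2.24-fold lower. Without the input library of DMSO replicate 1 the input change was -0.83. Footprints changed by -0.32 (SE 0.23, 95% interval -0.84 to 0.19, adjusted p = 0.266, same test) and by 0.03 without the footprint library of DMSO replicate 1.

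ITGB4, the hemidesmosome beta chain that pairs with ITGA6 alone (chr17:75721328-75757818, plus strand, 40 exons), fell less than its partner. Its input counts were 5507, 3347 and 4680 in DMSO and 2732, 2864 and 3149 in trametinib. Its footprints were 4087, 3293 and 2754 in DMSO and 2307, 2443 and 2069 in trametinib. The groups did not overlap in either assay. The change was -0.63 (SE 0.17, adjusted p = 0.0127, edgeR's quasi-likelihood test) in input and -0.57 (SE 0.16, adjusted p = 0.0139) in footprints, 1.54-fold and 1.48-fold lower. Without the DMSO replicate 1 library of the assay it was -0.47 in input and -0.41 in footprints. The input call was lost without trametinib input replicate 1 (-0.57, adjusted p = 0.0652) or replicate 2 (-0.61, adjusted p = 0.0574), and the footprint call without trametinib footprint replicate 3 (-0.51, adjusted p = 0.0650) or with scaling to library totals (-0.39, adjusted p = 0.0580), all by edgeR.

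ITGB5, which pairs with ITGAV in a vitronectin receptor (chr3:124761948-124901418, minus strand, 15 exons), fell while ITGAV rose. Its input counts were 785, 663 and 684 in DMSO and 426, 342 and 424 in trametinib. Its footprints were 302, 226 and 239 in DMSO and 182, 179 and 147 in trametinib. Neither assay showed overlap. The change was -0.83 (SE 0.16, adjusted p = 0.00146, edgeR's quasi-likelihood test) in input and -0.59 (SE 0.15, adjusted p = 0.0103) in footprints.

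ITGB6, another partner of ITGAV, which activates latent TGF-beta (chr2:160099667-160200313, minus strand, 15 exons), was near the limit of detection. Raw counts in DMSO were 2, 0 and 0 in input and 4, 1 and 2 in footprints. In trametinib they were 0, 0 and 0 in input and 0, 0 and 5 in footprints. No change was detectable at this depth, and with a floor of 3 counts no fold is given.

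ITGB3BP encodes CENP-R, a protein of the inner kinetochore that was named for binding the tail of the ITGB3 subunit (chr1:63440770-63593721, minus strand, 9 exons). It had the largest input change of the 9 tested genes. Input counts were 121, 229 and 152 in DMSO and 48.1, 38.6 and 23.1 in trametinib. Footprints were 309.8, 429 and 501 in DMSO and 76.8, 57.9 and 89.9 in trametinib. All trametinib libraries were below all DMSO libraries of the same assay. The change was -2.18 (SE 0.32, adjusted p = 0.000165, edgeR's quasi-likelihood test) in input and -2.46 (SE 0.22, adjusted p = 3.30e-05) in footprints, 4.53-fold and 5.51-fold lower. The genes whose log2 normalized counts followed it most closely over the 12 libraries were PARP2 (Pearson's r = 0.990), CENPW (0.987), SMC4 (0.987), HELLS (0.986) and SMC2 (0.986), out of 7659 candidates. For ITGA6, looked up in the same way after its values had been seen, they were XPO5 (0.994), PAK1IP1 (0.990), POC5 (0.988), H2BC11 (0.987) and CKAP2 (0.987). These r values describe libraries that share treatment and assay, and no p is attached.

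**Figure D2:**
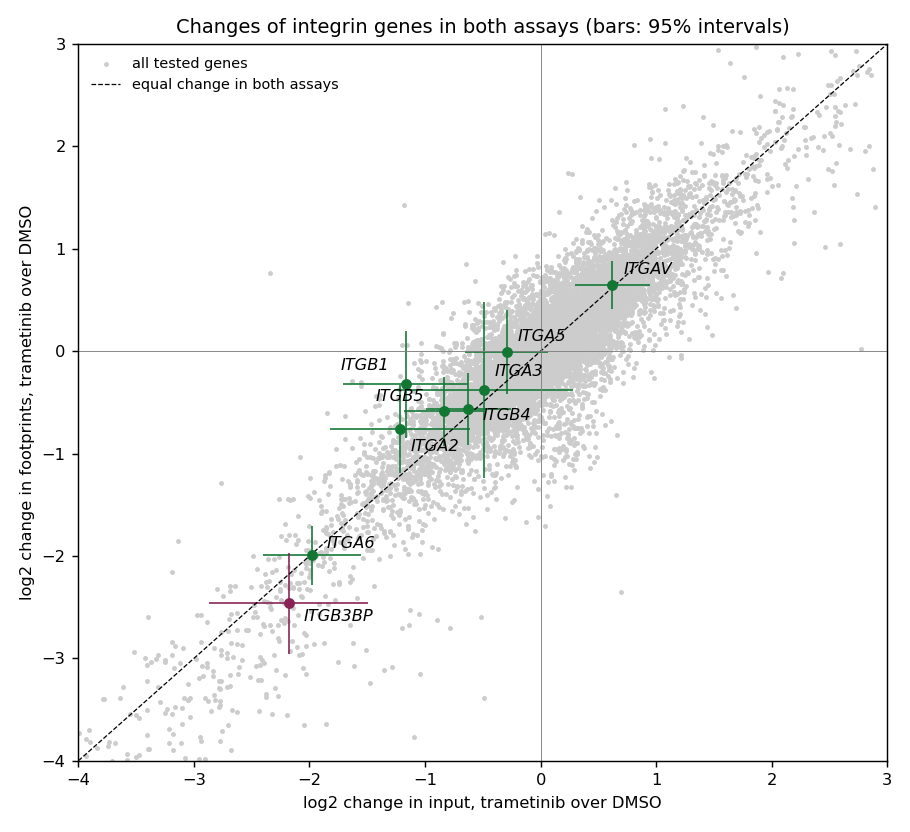
Log2 change, trametinib over DMSO, in input (x) against footprints (y), with the integrin genes named and all tested genes in grey; genes beyond the axis limits are not drawn. ITGA6 and ITGAV sit close to the diagonal (-1.98 and -1.99, 0.62 and 0.65), while ITGB1 lies above it (-1.17 and -0.32).

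Ribosome density, footprints over input, tells whether an mRNA carried more or fewer ribosomes per copy relative to other mRNAs. With this scaling, a change in ribosomes per copy that all mRNAs share is not visible. The paper reports that MEK inhibition lowered global protein synthesis in these cells. A higher density here therefore need not mean more ribosomes per copy in absolute terms. Density was tested as the interaction of assay and treatment over all 12 libraries. None of the 9 tested integrin genes was called (0 of 9), against 1.11% of all tested genes, of which 0.0656% were higher and 1.04% lower by edgeR. At an unadjusted p under 0.05, 849 of 10663 genes passed, and 1 of the 9 was ITGB1. The median change in density was 0.11 for the 9 genes and -0.00 for all tested genes. With DESeq2 the number of integrin genes called was also 0.

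The gene with the largest density change was ITGB1. Its density, the ratio of normalized footprints to normalized input in libraries of the same treatment and number, was 1.60, 1.58 and 1.61 in DMSO and 2.31, 3.30 and 3.24 in trametinib. The 3 DMSO values lay close together, with DMSO replicate 1 high in input and footprints alike, and all trametinib values were above them. Without overlap between treatments, 2 of the 9 genes (ITGB1 and ITGA5) were higher in density and 0 lower, as were 7.94% and 8.99% of the 10627 genes with a density in every dish. The density of ITGB1 pooled over the 3 dishes, summed normalized footprints over summed normalized input, moved from the 76.0th to the 95.0th percentile of all tested genes. The log2 change was 0.84 (SE 0.39, 95% interval 0.0050 to 1.68, adjusted p = 0.624, edgeR's quasi-likelihood test), which did not pass. With a term for each dish in the model, that is, with the replicate block that pairs input and footprints of a dish, the change was 0.86 (SE 0.16, 95% interval 0.52 to 1.21, adjusted p = 0.00732, same test) and passed, among 19 genes or 0.178% that were higher. Without both libraries of DMSO replicate 1 it was 0.85 (SE 0.20, adjusted p = 0.0361, edgeR) and passed too. Leaving out single libraries of a dish gave 0.49 to 1.195 with adjusted p-values from 0.0962 to 0.914. The ITGB1 call therefore depends on the pairing of input and footprints and on DMSO replicate 1.

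**Figure D3:**
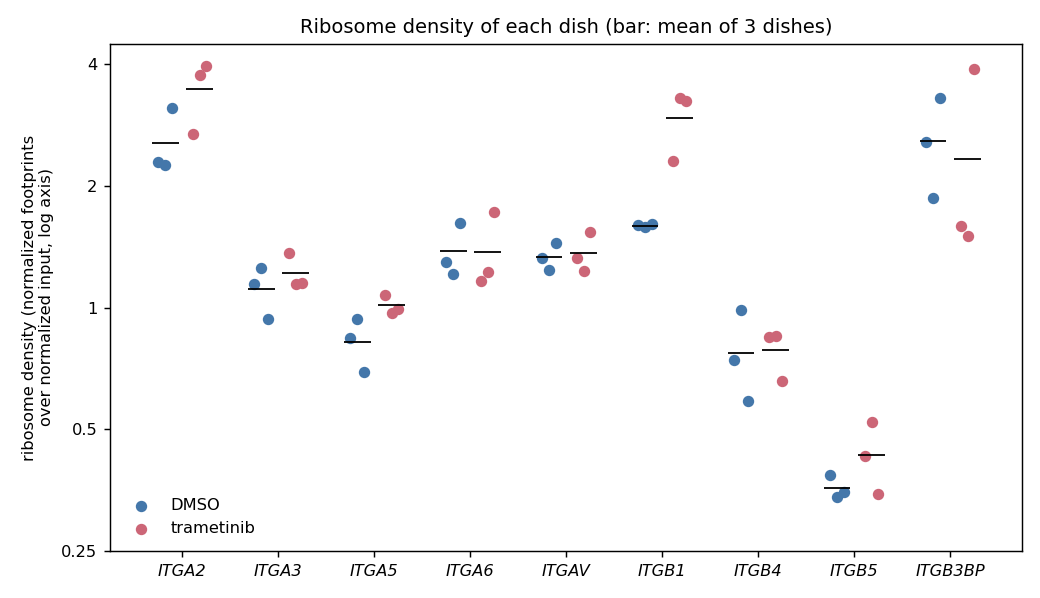
Ribosome density of the tested integrin genes per dish, as the ratio of normalized footprints to normalized input, for DMSO and trametinib (3 points each). ITGB1 moves from 1.58 to 1.61 in DMSO up to 2.31 to 3.30 in trametinib, while ITGA6 and ITGAV overlap between treatments.

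The other densities moved less. ITGA2 went from 2.29, 2.25 and 3.12 in DMSO to 2.69, 3.76 and 3.97 in trametinib, with overlap, and its change was 0.46 (95% interval -0.36 to 1.27). ITGA5 went from 0.840, 0.939 and 0.694 to 1.08, 0.969 and 0.993, higher in every trametinib dish, with a change of 0.29 (95% interval -0.25 to 0.83). For the remaining 6 genes, ITGA3, ITGA6, ITGAV, ITGB4, ITGB5 and ITGB3BP, the changes lay between -0.28 and 0.24 and every interval held 0. The narrowest interval was that of ITGAV (-0.33 to 0.38) and the widest that of ITGA3 (-1.15 to 1.37). With the replicate block by dish, the interval of ITGA3 was -0.19 to 0.47 and the widest was that of ITGB3BP (-1.04 to 0.44), and each of these 6 intervals again held 0.

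The members also differed among themselves in density, in either treatment. ITGB5 mRNA had a density of 0.358 ± 0.0231 in DMSO and 0.432 ± 0.0879 in trametinib (SD, n = 3), at the 8.30th and 12.8th percentile of all tested genes. At the other end in DMSO stood ITGA2 with 2.56 ± 0.490 and ITGB3BP with 2.58 ± 0.711, at the 92.5th and 92.7th percentile. In trametinib ITGA2 had 3.47 ± 0.686 (96.7th percentile), ITGB1 2.95 ± 0.554 (95.0th) and ITGB3BP 2.33 ± 1.35 (86.6th). The median over all tested genes was 1.02 in DMSO (quartiles 0.632 and 1.56) and 1.01 in trametinib. These medians and the percentiles use densities pooled over the 3 dishes, while the member values are means of the dish densities. Densities of different genes compare their footprints with their own input, on the scale where both assays were normalized together.

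Per kilobase of coding sequence, which allows levels of different genes to be compared, ITGB1 had the most footprints among the subunits, with 2492 ± 940 normalized counts per coding kb in DMSO (SD, n = 3). ITGA3 followed with 1518 ± 865, ITGB4 with 618 ± 123, ITGA6 with 445 ± 56.3, ITGAV with 308 ± 19.1, ITGA2 with 264 ± 78.9, ITGA5 with 186 ± 49.0 and ITGB5 with 107 ± 16.9. Among neighbours in this order, the ranges of ITGB1 and ITGA3, of ITGB4 and ITGA6, of ITGAV and ITGA2 and of ITGA2 and ITGA5 overlapped. In trametinib the order of footprint levels was ITGB1 (1985 ± 59.6), ITGA3 (1162 ± 80.7), ITGAV (480 ± 19.9), ITGB4 (416 ± 34.6), ITGA5 (184 ± 6.19), ITGA2 (156 ± 5.61), ITGA6 (111 ± 8.38) and ITGB5 (70.7 ± 8.13), and no neighbours overlapped. ITGA6 went from the second alpha subunit by footprint level to the last, and ITGAV from the third to the second.

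As a share of the footprints per kb of the 5 alpha subunits, ITGA6 held 17.4% ± 4.10 in DMSO and 5.34% ± 0.554 in trametinib, and ITGAV 12.2% ± 3.50 and 23.0% ± 1.31. ITGA3 kept the largest share, 53.4% ± 9.23 and 55.5% ± 2.23. The ratio of ITGAV to ITGA6 footprints per kb was 0.695 ± 0.0422 in DMSO and 4.32 ± 0.346 in trametinib. Among the 4 beta subunits, ITGB1 held 76.8% ± 3.71 of footprints in DMSO and 80.3% ± 1.73 in trametinib, but 57.4% ± 5.02 and 49.4% ± 6.07 of input. ITGB4, whose single partner is ITGA6, had 1.38 ± 0.130 times the footprints of ITGA6 per kb in DMSO and 3.76 ± 0.590 times in trametinib. The sum of alpha over the sum of beta subunits per kb was 0.837 ± 0.0861 and 0.847 ± 0.0354 in footprints, and 0.827 ± 0.118 and 1.19 ± 0.233 in input. These shares and ratios are descriptions and were not tested.

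**Figure D4:**
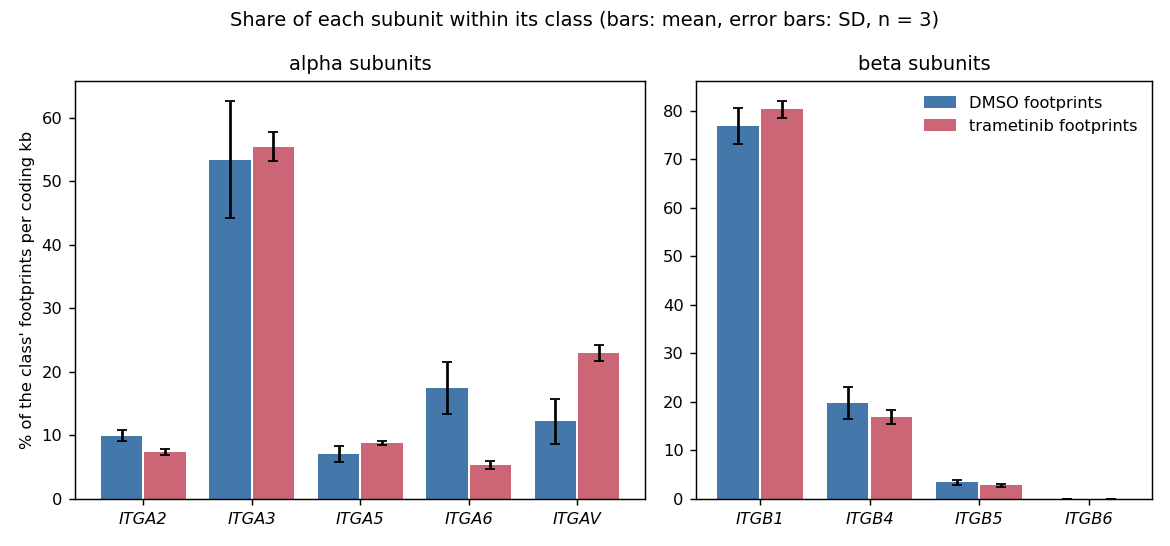
Share of each alpha subunit among the 5 alpha subunits and of each beta subunit among the 4 beta subunits, in percent of normalized counts per coding kb, by group (mean of 3 libraries). ITGA6 footprints fall from 17.4% to 5.34% of the alpha subunits and ITGAV footprints rise from 12.2% to 23.0%.

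ERK signalling reaches genes through AP-1 and ETS factors. The promoters of ITGA6, the subunit gene with the largest fall, and of ITGB5, 1 of 2 members with the ETS letters given below, are shown. ITGB1, which also has the ETS letters, and ITGA2, which has neither motif, fell more in input than ITGB5 and are not printed. A part of these letters in the changes was not tested. The 250 bases before the RefSeq start (GRCh38.p14) are chr2:172427086-172427335, plus strand, for ITGA6 and chr3:124901419-124901668, minus strand, for ITGB5, each written along its own strand. Capitals mark matches to the AP-1 motif TGANTCA or the ETS core CCGGAA on either strand.
ITGA6: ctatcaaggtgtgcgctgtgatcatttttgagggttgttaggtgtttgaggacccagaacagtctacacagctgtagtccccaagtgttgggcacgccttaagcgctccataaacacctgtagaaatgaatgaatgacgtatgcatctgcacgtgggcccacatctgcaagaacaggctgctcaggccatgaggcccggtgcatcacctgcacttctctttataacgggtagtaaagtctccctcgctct
ITGB5: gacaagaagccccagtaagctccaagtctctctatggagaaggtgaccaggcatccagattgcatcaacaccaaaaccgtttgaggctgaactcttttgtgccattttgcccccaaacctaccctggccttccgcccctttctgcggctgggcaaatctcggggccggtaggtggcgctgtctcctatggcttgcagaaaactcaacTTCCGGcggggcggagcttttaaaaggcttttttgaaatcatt
The ITGA6 window held neither motif, and the ITGB5 window held 1 ETS core, 43 bases before the start. Searched in the same way, TATAAA (in 10.7% of promoters) and CACGTG (6.34%) were in the ITGA6 window, 32 and 101 bases before the start, GGGCGG (42.6%) was in the ITGB5 window, and TGACGTCA (1.65%) was in neither. Promoters of 8 of the 10 members were matched in the RefSeq table used here, and those of ITGA3 and ITGB4 were not analysed. The AP-1 letters were in 0 of these 8 and in 6.57% of 35116 promoters of the same length, and the ETS letters were in 2 of 8, ITGB1 and ITGB5, and in 14.5% of promoters. A match is a run of letters, not a bound site, and no match says only that these letters are not in this window.

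Of 17 other integrin subunit genes looked up, 16 were in the table and 4 were tested, with 2 higher (ITGB8 and ITGA7) and 1 lower (ITGAE) in input. Over all tested genes, 15.6% were higher and 16.8% lower in input. ITGB8, another beta chain that pairs with ITGAV, had input counts of 23.7, 32.4 and 23.4 in DMSO and 129.96, 175 and 231 in trametinib. Its footprints were 9.58, 13.7 and 17.3 in DMSO and 64.2, 84.2 and 133 in trametinib. The groups were far apart in both assays. The rise was 2.75 in input (SE 0.30, adjusted p = 1.08e-05, edgeR's quasi-likelihood test) and 2.79 in footprints (SE 0.33, adjusted p = 0.000180). ITGA7, a laminin-binding chain known from muscle, rose from 77.1 ± 12.8 to 142 ± 18.1 in input, and ITGAE, an alpha chain that binds E-cadherin, fell from 192 ± 27.1 to 89.7 ± 0.566 (SD, n = 3). The ITGA7 call was lost without trametinib input replicate 2.

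Matrix ligands of integrins rose more often than they fell. Of 35 genes looked up, 23 were tested, of which 14 rose and 0 fell in input and 16 rose and 1 (TGFB1, the latent ligand of ITGAV integrins, named after its value was seen) fell in footprints. Of all tested genes 15.6% rose and 16.8% fell in input, and 23.9% and 25.3% in footprints. The median change was 0.75 in input and 1.03 in footprints, against -0.00 and -0.01 for all tested genes. THBS1, which encodes the secreted glycoprotein thrombospondin 1, went from 40.9 ± 13.0 to 287 ± 44.3 in input, and its log2 change was 2.82 in input and 2.73 in footprints. The laminin chain genes LAMA3 and LAMB2 rose by 2.21 and 1.87 in input and by 1.62 and 1.93 in footprints, and NPNT, a ligand of integrins named nephronectin, by 1.33 and 1.64. COL3A1 and VWF, on the fibroblast and endothelial marker lists above, rose in the same libraries. Their raw counts over the 3 input libraries summed to 1 and 13 in DMSO and to 98 and 66 in trametinib. All libraries come from the HCT116 line, and a link between these markers and the ligand values was not tested.

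**Figure D5:**
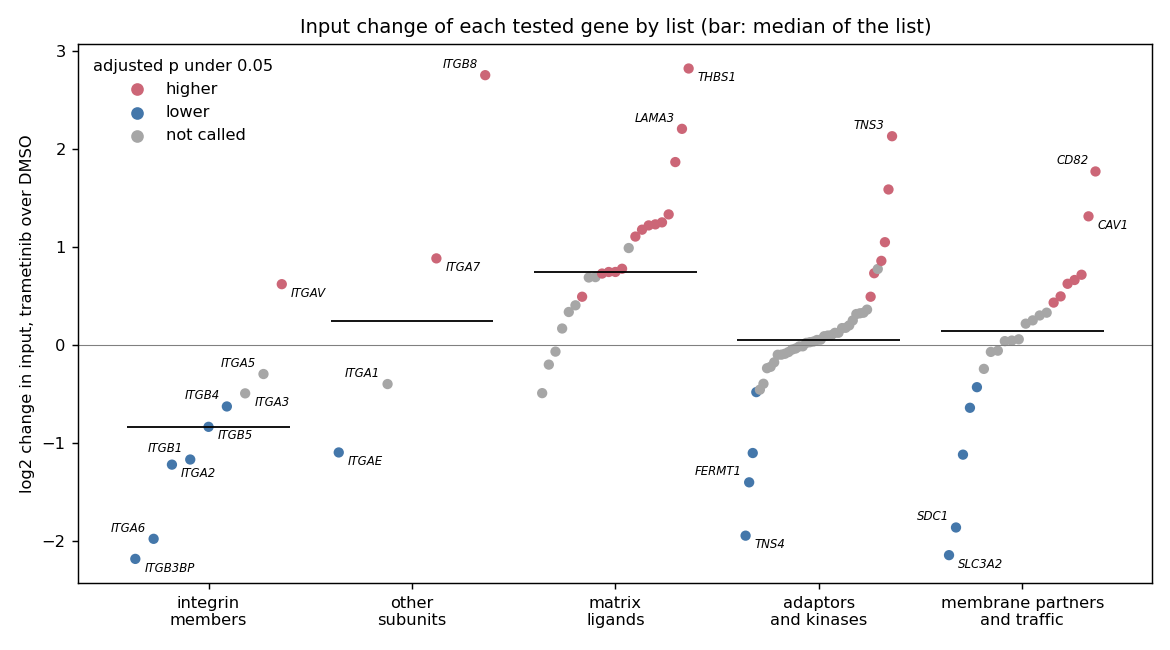
Log2 change in input, trametinib over DMSO, of every tested gene in the integrin set and in the lists of other subunits, matrix ligands, adaptors and kinases, and membrane partners; points are genes coloured by call and the bar is the list's median. The integrin set has its median at -0.83 and the matrix ligands at 0.75.

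Cytoplasmic adaptors and kinases showed no common direction, with 6 of 42 tested genes higher and 4 lower in input, 11 higher and 5 lower in footprints, and a median input change of 0.05. Over all tested genes, input rose for 15.6% and fell for 16.8%, and footprints rose for 23.9% and fell for 25.3%. The share of higher adaptors was near that background in both assays. The share of lower adaptors was below it in both, a difference that was not tested. The tensins, which tie integrin tails to actin, moved apart: TNS3 rose by 2.13 in input and 1.79 in footprints, while TNS4 fell by 1.94 and 2.00. FERMT1, encoding the integrin activator kindlin-1, changed by -1.40 in input and -0.67 in footprints, and PXN, encoding paxillin of focal adhesions, by -1.10 and -0.83. PTK2B, a kinase related to focal adhesion kinase, rose by 1.05 in input. Smaller input changes of TNS1 (0.86), of SHARPIN (0.73), an inhibitor of integrin activation, and of ACTN1 (-0.48), an actin cross-linker, passed the test but lost the call when some single libraries were left out. For TNS1 these were DMSO input replicates 1 (0.73) and 2 (0.86) and trametinib input replicate 3 (0.66). For SHARPIN they were DMSO input replicate 2 (0.58) and trametinib input replicate 2 (0.59), and for ACTN1 each trametinib input library (-0.48 to -0.47). TNS1 was also lost with DESeq2.

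Of the membrane partners and traffic proteins, 7 of 22 tested genes rose and 5 fell in input, and 10 rose and 4 fell in footprints, beside 15.6% and 16.8% of all tested genes in input and 23.9% and 25.3% in footprints. The tetraspanins CD82 and CD9, which sit beside integrins in the membrane, rose by 1.77 and 0.66 in input, CAV1, encoding caveolin-1, by 1.31, and RAB25, a GTPase of integrin recycling, by 0.72. Other tetraspanins of the list, named after their values were seen, moved apart. CD81 rose by 0.43, and CD151 fell by 0.43 in input (adjusted p = 0.0492, edgeR's quasi-likelihood test). SDC1, a syndecan, fell by 1.86, CD44, the hyaluronan receptor, by 1.12, and ARF6, a GTPase of membrane recycling, by 0.64 on the log2 scale. CD44 went from 3703 ± 220 to 1701 ± 111 in input (SD, n = 3). SLC3A2, the CD98 heavy chain that binds beta subunits, had 5296 ± 3536 normalized counts in DMSO input, with replicate 1 the highest at 9368. Its input fell by 2.14 on the log2 scale, and by 1.45 without that library. The SLC3A2 input call was lost when any single trametinib input library was left out, with the block by replicate number and without the filter, and the ARF6 call without DMSO input replicate 1 (-0.55), when any single trametinib input library was left out (-0.73 to -0.59) and with DESeq2. No gene of these 4 lists was called in ribosome density by edgeR (0 in each list).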

How the data were processed

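Ribosome profiling of HCT116 cells gave 12 libraries, grouped by the sample labels. The authors removed adapters with FASTX and rRNA and tRNA reads with Bowtie 1.2.2, mapped reads to the basic transcripts of Gencode V38 (GRCh38), and counted those of 25 to 35 nt that fell inside the reading frames of 1 gene symbol. The deposited table holds these raw counts and a signal column per library, the counts divided by a size factor that the authors obtained with DESeq2 1.46.0. The size factors, recomputed here by the median of ratios, equalled the deposited ones in 12 of 12 libraries (tolerance 0.001). It also holds fold changes, adjusted p-values and list flags of the authors, which were not used. Reads shared by symbols were not counted.

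Raw counts were tested with edgeR 4.0.16 (quasi-likelihood, robust) in R 4.3.3, scaled by the median of ratios, for genes whose count reached 10 in 3 or more input libraries. Input and footprints were tested within 6 libraries each, and ribosome density as the interaction of assay and treatment over 12. The SE is the change over the root of F, and 95% intervals use the fitted degrees of freedom. Calls need a Benjamini-Hochberg adjusted p-value under 0.05. The scripts were tested on simulated data. Coding lengths and gene positions are from Gencode v44 (GRCh38), and promoters from RefSeq (GRCh38.p14). With this scaling, a change shared by all mRNAs is not visible.

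Members and lists were chosen with earlier results of these data known. All members are named, with DUSP6 and, from each other list, up to 4 genes higher and up to 4 lower with the largest input change among those called with a mean of at least 50 normalized counts in input. The genes most like ITGB3BP, the called member with the largest input change, were the 5 highest correlations of log2(normalized count + 1) over 12 libraries among genes with a mean of at least 100. The methods of the study state that input came from the same lysate as footprints, and libraries of equal treatment and number were taken as such a dish, a number that the labels give without naming the dish. Pearson's r of their deviations from the mean of each group, over 7669 genes, was 0.816, 0.181 and 0.343 for DMSO dishes and 0.141, 0.0803 and -0.122 for trametinib dishes. Alternatives were other scalings, no filter, DESeq2 1.42.0, limma 3.58.1 with a prior count of 2, replicate blocks, a model over 12 libraries and each library left out.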

Additional observations from a re-analysis of the deposited data

How the results depend on the processing

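Over the counts of genes called, 178 of 196 alternative values stayed within 1.5 times the reported count, and of 1110 values for single genes, 1059 kept direction and call, 24 lost the call, 2 gained it and 25 turned sign. The genes higher in ribosome density numbered 7 and became 35 with library totals, 37 with DESeq2, 4 with limma, 19 with the replicate block by dish and 13 without both libraries of DMSO replicate 1, a setting chosen after seeing the data. In these last 2 settings 1 integrin gene, ITGB1, was called higher in density (0 otherwise). Leaving out 1 library gave 1009 (without trametinib input replicate 2) to 1716 genes higher in input, 1 to 13 higher and 73 (without trametinib footprint replicate 2) to 134 lower in density. The replicate block by number gave ITGB1 a density change of 0.89 (adjusted p = 0.0747, edgeR), and the blocks changed no other call of a member. Library totals moved the median of all genes by 0.16 in footprints and 0.18 in density. Sign changes lay in values that were not called. ITGA5 footprints became 0.17 with library totals, 0.028 with limma, 0.026 with the replicate block by number and 0.0080 with the 12-library model, and ITGA6 density 0.055 with TMM and 0.16 with library totals. With single libraries left out, the ranges that crossed 0 were -0.72 to 0.029 for ITGA3 input, -0.65 to 0.19 for ITGA3 footprints, -0.20 to 0.19 for ITGA5 footprints, -0.49 to 0.029 for ITGB1 footprints, and in density -0.42 to 0.68 for ITGA3, -0.16 to 0.13 for ITGA6, -0.032 to 0.10 for ITGAV and -0.11 to 0.22 for ITGB4. The upper end for ITGA3 input and footprints and ITGB1 footprints came without DMSO replicate 1. The causes were not tested. DUSP6 fell below the filter when a DMSO input library was left out. Input depth limits the density of weakly expressed genes.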
